A study of Mus musculus with 12 samples.

Results

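The 41 genes described here encode the DNA replication machinery and the enzymes that supply it with nucleotides. The rule that picks them is a list of gene names, drawn up with earlier results of these data known, and uses no measured value itself. All 41 were found among the 23309 mouse genes of the expression table, and all 41 were among the 11516 genes that reached at least 1 FPKM in at least 2 libraries and were tested. The cells were CD117+ mouse bone marrow progenitors on a C57BL/6 background, from wild-type littermates or from HMGN1-OE mice, which carry human HMGN1 as a transgene. Cells of both genotypes were immortalized with a retrovirus that expresses HoxB8 fused to the estrogen receptor (ER-HoxB8) and were grown in interleukin 3 and estradiol (E2). Withdrawal of E2 switches the fusion protein off and lets the progenitors mature, and polyA RNA was taken at 0, 36, and 96 h after withdrawal, with 2 libraries for each genotype and time and 12 libraries in all. Each group thus describes a retrovirally immortalized culture, and the age at which the marrow was taken is not given in the sources used here.

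Before a cell divides, the origin recognition complex with Cdc6 and Cdt1 loads rings of the Mcm2 to Mcm7 proteins onto DNA, and Cdc45, the GINS proteins, and Mcm10 turn each ring into an active helicase. Primase and DNA polymerase alpha start new strands, the clamp Pcna holds polymerases delta and epsilon on the template, and ribonucleotide reductase and thymidylate enzymes supply the building blocks. Genes of this machinery are known to be high in cycling myeloid progenitors and low in mature neutrophils, which do not divide.

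The values are FPKM (fragments scaled by transcript length and library size) that the authors normalized to synthetic ERCC RNAs added to RNA from a counted number of cells, so a change in the RNA content per cell appears in every gene. Changes are therefore given on this deposited scale and, beside it, centred, that is with each library set against its own median tested gene. All changes and standard errors are log2, from limma on log2(FPKM + 1), and a gene was called at a Benjamini-Hochberg adjusted p under 0.05 over the 11516 genes. The 2 libraries of a group are named by the digit, 0 or 1, at the end of their column. Total FPKM lay between 680258 and 1442573 at 0 and 36 h and between 405490 and 559135 at 96 h, except in wild-type 96 h library 1 with 228955. That library stood apart from wild-type 96 h library 0, with 41 of 41 members 2.53 to 4.05 times lower and a median factor of 3.22, where the median factor over all tested genes was 2.26. Immature myeloid markers (Kit, Cd34, Mpo, Elane, Prtn3, Ctsg, and Myb) summed to 5612 FPKM or more at 0 and 36 h, to 693 and 124 at 96 h in wild-type and to 810 and 2336 at 96 h in HMGN1-OE libraries, while 9 mature neutrophil markers summed to at most 2916 before and at least 65518 at 96 h. One of these, S100a9, was listed at 0.051 FPKM in wild-type 96 h library 0, against 26546 in library 1 and 51875 and 73461 in the HMGN1-OE libraries of 96 h, so that library's sum lacks one of the most abundant markers. Ly6g was not among the genes listed. Summed monocyte and macrophage markers were 4.34 to 42.9 FPKM, summed B cell, T cell, erythroid, and fibroblast markers stayed at or below 6.03 FPKM in every library, and mast cell markers (Cpa3, Mcpt8, and Ms4a2) ranged from 97.7 to 2600 FPKM. The highest mast cell sum, 2600, was that of wild-type 36 h library 0, against 769 in library 1, and Cd34 was 264 against 1105 FPKM and Elane 2864 against 1109 FPKM in the same pair. The part of these markers in the changes from 36 h was not tested. With 1 wild-type library of 36 or 96 h left out in turn, the members' median change from 36 to 96 h minus that of all tested genes was −1.10 to −0.52. Mouse Hmgn1 was 85.7 to 201 FPKM at 0 and 36 h and 4.71 to 20.7 FPKM at 96 h over both genotypes, and the human transgene was not analysed here.

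Most of the DNA replication genes were lower at 96 h after E2 withdrawal than at 0 and 36 h, in both genotypes, on the deposited scale. Pcna, the sliding clamp, was the highest member in every group, and Mcm6 and Mcm7 of the helicase followed at 0 h in both genotypes. Between 36 and 96 h in wild-type cells 41 of 41 members were called lower, as were 86.3% of all tested genes, and the median change of the members was −3.07 against −2.21 over all tested genes. Between 36 and 96 h in HMGN1-OE cells 40 of 41 were called lower (64.9% of tested genes were), with a median of −1.74 against −1.33. Tk1 was also lower there but did not pass. From 0 to 96 h 40 members were called lower in wild-type cells (77.2% of tested genes were) and 37 in HMGN1-OE cells (62.4%). All 41 were lower in both genotypes, with medians of −2.44 and −1.63 beside −1.75 and −1.28 over all tested genes. Tk1 did not pass in wild-type cells, and Tk1, Rrm2, Cdt1, and Cdc45 did not pass in HMGN1-OE cells. As ratios of group means, the members were 1.85 to 22.5 times higher at 0 than at 96 h in wild-type cells, median 5.47, and 1.32 to 11.1 times higher in HMGN1-OE cells, median 3.19. In bulk RNA, fewer cells that express these genes and less RNA from them per cell cannot be told apart. With wild-type 96 h library 1 excluded, the median wild-type change from 0 to 96 h was −1.70 beside −1.33 over all tested genes. From 36 to 96 h it was −2.30 beside −1.78. Without wild-type 96 h library 0 instead, the wild-type changes were larger, for example −4.95 for Pold2 and −3.10 for Pcna from 0 to 96 h. The HMGN1-OE counts rested on more libraries, and fewer members were called without library 0 of HMGN1-OE 0, 36, or 96 h. The share of all tested genes called in those fits is not given here. With 1 HMGN1-OE library of the groups compared left out, the members' median minus that of all tested genes was −0.39 to −0.27 from 0 to 96 h. From 36 to 96 h it was −0.50 to −0.35.

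**Figure D1:**
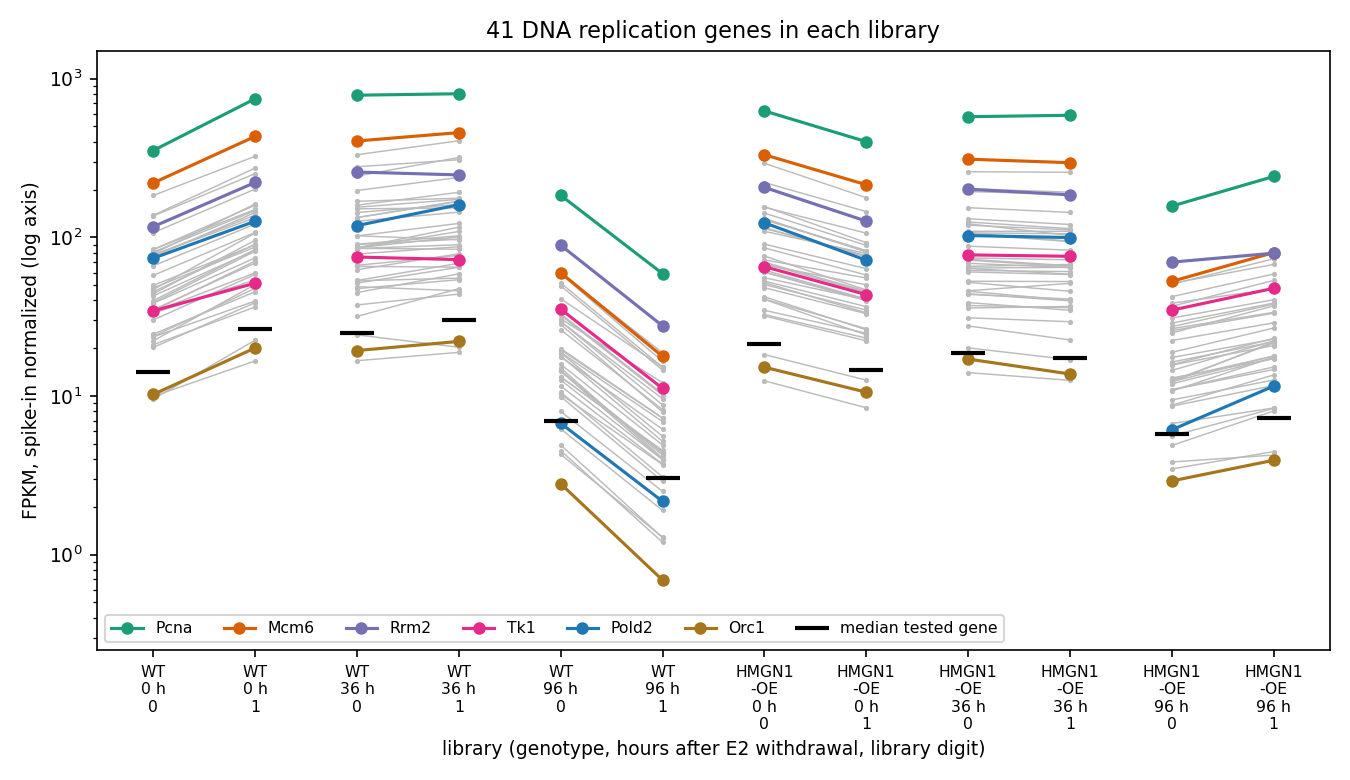
FPKM of the 41 members (grey lines join the 2 libraries of a group, log axis) in the 12 libraries, with 6 members in colour and a black bar at the median tested gene. Most members were lower at 96 h than at 0 and 36 h, Tk1 overlapped between 0 and 96 h, wild-type 96 h library 1 was the lowest library, and Pold2 dropped from well above the median gene to close to it.

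No member passed the test between 0 and 36 h. In wild-type cells 41 of 41 members were higher at 36 h, with a median of 0.56 beside 0.47 over all tested genes and an adjusted p of at least 0.589, where 0.617% of tested genes were called in either direction and 0 members had an unadjusted p under 0.05. Both 36 h libraries lay above both 0 h libraries for 20 members, as they did for 25.7% of tested genes. The 0 h wild-type libraries themselves differed, with 41 of 41 members higher in library 1, by a median factor of 1.90 beside 1.89 over all genes. In HMGN1-OE cells 39 members were higher at 36 h, median 0.18 beside 0.06, with none called (1.8% of tested genes called, 0 members at an unadjusted p under 0.05). On the centred scale 33 members were higher at 36 h in wild-type cells, median 0.08, with both 36 h libraries above both 0 h libraries for 13 members, beside 14.4% of tested genes. Centred, 38 were higher at 36 h in HMGN1-OE cells, median 0.15, with 3 at an unadjusted p under 0.05 (14.8% of tested genes) and 0 called, and both 36 h libraries lay above both 0 h libraries for 27 members, beside 33.4% of tested genes. The members' median minus that of all tested genes was 0.11 in HMGN1-OE cells, and 0.18 without 0 h library 0 and 0.07 without 0 h library 1. Cell state markers moved in the same comparison, with 3 of 7 immature myeloid markers called higher (median 1.38) and 5 of 9 mature neutrophil markers called lower (median −3.05) on the deposited scale and 0 of either called centred. Their part in the members' values was not tested.

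Relative to the median gene, the members were lower at 96 h by less, and fewer of them passed. The median member stood at 3.21 to 3.83 times the median tested gene in the 8 libraries of 0 and 36 h. At 96 h it stood at 2.58 and 1.82 times in wild-type and at 2.73 and 3.00 times in HMGN1-OE libraries, so the ranges did not overlap. The 41 members together made up 0.407% to 0.462% of all FPKM at 0 and 36 h, 0.243% to 0.254% in 3 of the 4 libraries at 96 h, and 0.157% in wild-type 96 h library 1. On the centred scale 33 members were called lower and 1 higher from 36 to 96 h in wild-type cells, where 33.7% of tested genes were called lower and 38.2% higher. From 0 to 96 h the wild-type counts were 29 lower and 1 higher, against 33.8% and 36.5% of tested genes. In HMGN1-OE cells 23 members were called lower and 0 higher from 36 to 96 h (32.3% and 28.6% of tested genes), and 17 were called lower and 1 higher from 0 to 96 h (32.5% and 30.9%). Centred medians from 0 to 96 h were −0.59 in wild-type cells and −0.32 in HMGN1-OE cells, beside 0.09 and 0.03 over all tested genes. The gap between the members' median and that of all tested genes was −0.68 and −0.35, but −0.48 and −0.14 with a pseudocount of 0.1 and −0.41 and −0.12 with quantile normalization. The centred wild-type median was −0.33 without wild-type 96 h library 1, beside 0.04 over all tested genes. The member called higher in both genotypes from 0 to 96 h was Tk1. The members varied less among themselves than the tested genes did, with an SD of the change from 0 to 96 h of 0.54 against 1.37 in wild-type and 0.48 against 1.26 in HMGN1-OE cells.

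**Figure D2:**
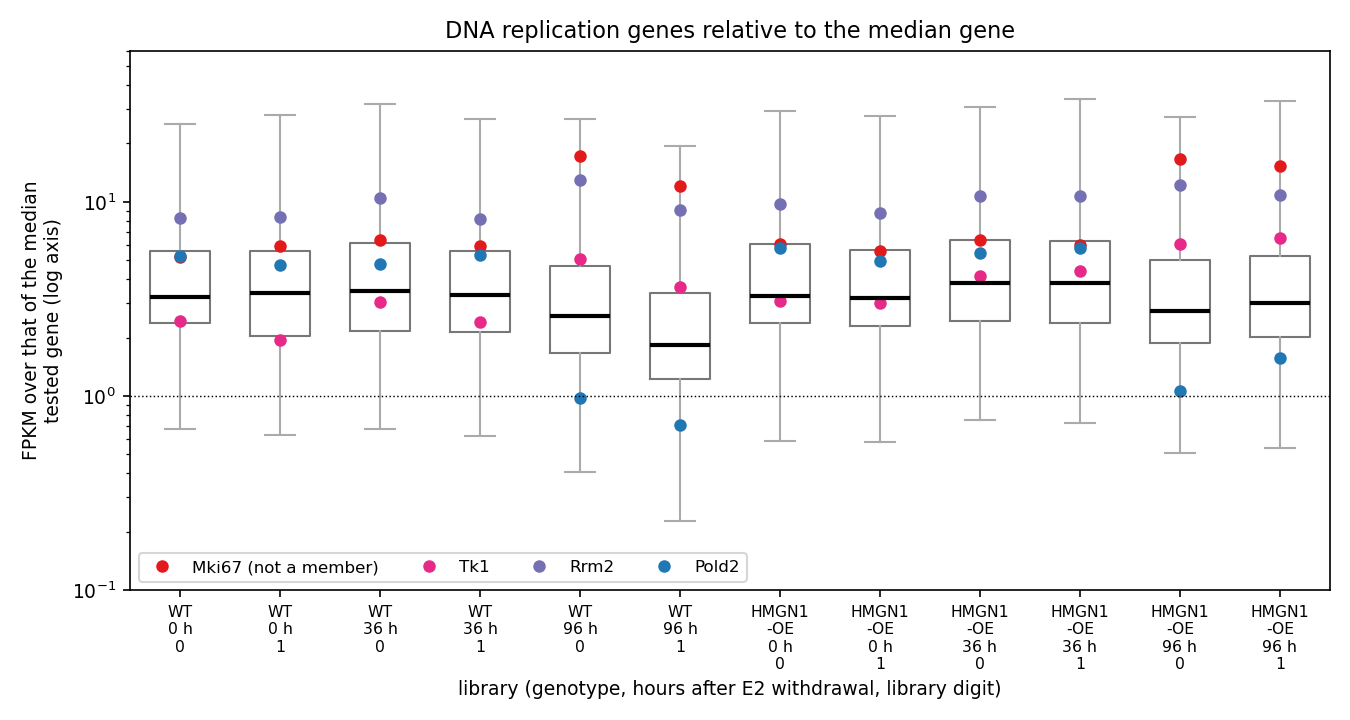
FPKM over that of the library's median tested gene (log axis), where boxes span the interquartile range of the 41 members, thick lines mark their median, and whiskers reach the lowest and highest member. The median member sat at 3.21 to 3.83 at 0 and 36 h and at 1.82 to 3.00 at 96 h, while Tk1 and Mki67, which is no member, were higher at 96 h than at 0 h on this scale.

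The promoter sequences of members with different changes are shown to let their letters be compared. RefSeq promoter windows (GRCm38.p6, 250 bases before to 50 after the gene start) were found for 34 of the 41 members by symbol. Printed are the 250 bases before the start of Pold2, which fell most, of Tk1, which had the smallest change, of Pcna, the highest member, of Mcm5, and of Mcm6, added after its matches were seen. Capitals mark E2F letters (TTTGGCGC, TTTCCCGC, TTTCGCGC, TTTGCCGC, or GGCGGGAA, whose reverse complement TTCCCGCC overlaps TTTCCCGC) and CCAAT, on either strand, and the sequences run 5′ to 3′ on the strand of the gene. Positions give the leftmost base of a match, with −1 directly before the start.
Pold2, chr11:5878257-5878506, minus strand: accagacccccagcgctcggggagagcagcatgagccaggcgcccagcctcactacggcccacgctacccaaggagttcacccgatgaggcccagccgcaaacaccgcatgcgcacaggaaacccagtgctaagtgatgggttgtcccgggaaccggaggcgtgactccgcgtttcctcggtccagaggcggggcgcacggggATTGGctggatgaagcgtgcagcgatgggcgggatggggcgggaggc
Tk1, chr11:117826015-117826264, minus strand: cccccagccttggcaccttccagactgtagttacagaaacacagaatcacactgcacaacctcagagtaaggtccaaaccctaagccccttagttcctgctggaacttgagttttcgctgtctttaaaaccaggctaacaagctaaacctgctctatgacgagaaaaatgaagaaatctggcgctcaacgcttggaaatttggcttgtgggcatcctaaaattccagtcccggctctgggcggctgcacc
Pcna, chr2:132253181-132253430, minus strand: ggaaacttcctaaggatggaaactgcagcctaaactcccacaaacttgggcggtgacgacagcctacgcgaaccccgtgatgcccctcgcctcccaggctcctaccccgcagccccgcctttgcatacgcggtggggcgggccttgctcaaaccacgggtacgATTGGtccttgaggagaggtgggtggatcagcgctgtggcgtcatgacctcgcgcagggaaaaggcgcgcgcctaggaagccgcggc
Mcm5, chr8:75109259-75109508, plus strand: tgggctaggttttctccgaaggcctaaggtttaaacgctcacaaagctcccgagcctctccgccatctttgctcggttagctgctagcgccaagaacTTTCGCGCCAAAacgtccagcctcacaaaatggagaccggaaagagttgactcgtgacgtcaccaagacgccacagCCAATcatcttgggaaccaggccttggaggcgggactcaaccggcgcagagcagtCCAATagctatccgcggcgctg
Mcm6, chr1:128359706-128359955, minus strand: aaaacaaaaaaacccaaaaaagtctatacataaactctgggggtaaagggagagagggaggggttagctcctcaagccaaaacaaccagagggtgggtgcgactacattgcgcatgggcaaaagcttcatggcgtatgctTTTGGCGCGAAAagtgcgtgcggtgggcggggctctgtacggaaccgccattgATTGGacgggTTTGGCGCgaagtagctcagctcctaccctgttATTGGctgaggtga
Mcm5 holds TTTCGCGC overlapping the reverse complement of TTTGGCGC from position −153, and CCAAT at −77 and −22. Mcm6 holds the same overlapping pair in reverse order from −110, TTTGGCGC again at −47, and CCAAT on the other strand at −57 and −14. The bases shown for Pold2 and Pcna hold CCAAT on the other strand, at −47 and −87, the Tk1 window holds none of the letters searched, and Pold2 has another entry, with no match. At least 1 of the E2F letter strings stood in a window of 18 of the 34 members (52.9%), in 8.37% of the 8530 tested genes with a window, and in 4.46% of all 27025 genes with one. TTTCGCGC was found in 8 members, TTTGGCGC in 7, TTTCCCGC in 6, GGCGGGAA in 6, and TTTGCCGC in 0. CCAAT was found in 22 members (64.7%), in 43.6% of tested genes, and in 41.1% of all genes. The 18 members with E2F letters had a median wild-type change from 0 to 96 h of −2.46, range −3.20 to −1.84, and the 16 without had −2.55, range −4.30 to −1.04. These matches are a description of the letters in these windows.

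The helicase genes Mcm2 to Mcm7 fell in both genotypes, Mcm6 most and Mcm5 least. Mcm6 was 220 and 433 FPKM at 0 h, 405 and 457 at 36 h, and 59.8 and 17.8 at 96 h in wild-type libraries 0 and 1. In HMGN1-OE libraries Mcm6 was 332 and 215, 311 and 295, and 52.8 and 80.1 FPKM. In either genotype both 96 h libraries lay below all earlier ones. From 0 to 96 h Mcm6 fell by 3.20 (SE 0.58, limma adjusted p 2.51e-07) in wild-type and by 2.02 (SE 0.58, adjusted p 0.00161) in HMGN1-OE cells. Mcm2 fell by 2.85 and 1.95 (adjusted p 1.54e-06 and 0.00148), Mcm7 by 2.83 and 1.89 (4.24e-06 and 0.00293), and Mcm3 by 2.73 and 1.85 (6.4e-06 and 0.00317). Mcm4 fell by 2.44 and 1.60 (3.56e-05 and 0.00849). Mcm5 was 107 and 201 FPKM at 0 h, 197 and 238 at 36 h, and 51.6 and 15.2 at 96 h in wild-type, and 155 and 106, 154 and 144, and 42.3 and 58.7 in HMGN1-OE libraries. Mcm5 fell by 2.34 (SE 0.57, adjusted p 9.26e-05) in wild-type and by 1.35 (SE 0.57, adjusted p 0.0295) in HMGN1-OE cells. Centred, all 6 were called lower in wild-type cells and 4 in HMGN1-OE cells (33.8% and 32.5% of tested genes), where Mcm4 had −0.29 and Mcm5 −0.03. The 6 proteins work in equal numbers, yet the mix of their mRNAs moved. Mcm6 made up 26.0% to 28.7% of the summed Mcm2 to Mcm7 FPKM in the 8 libraries of 0 and 36 h and 21.1% to 23.5% in the 4 of 96 h, Mcm5 12.2% to 13.6% before and 17.2% to 18.4% at 96 h, and Mcm4 9.16% to 10.6% and 11.3% to 12.2%. The shares of Mcm2, Mcm3, and Mcm7 overlapped between times. Without wild-type 96 h library 1 the 6 wild-type changes were −2.35 to −1.49, and without HMGN1-OE 0 h library 0 or 96 h library 0 none of the 6 HMGN1-OE changes, −1.71 to −1.08 and −1.72 to −1.11, passed, and that of Mcm5 (−1.58) also did not pass without HMGN1-OE 96 h library 1.

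Of the licensing genes, Orc1 had the largest change in wild-type cells and Cdt1 the smallest in both genotypes. Orc1, the largest subunit of the origin recognition complex, was 10.2 and 20.1 FPKM at 0 h, 19.3 and 22.1 at 36 h, and 2.80 and 0.691 at 96 h in wild-type libraries. In HMGN1-OE libraries it was 15.2 and 10.6, 17.1 and 13.8, and 2.91 and 3.93 FPKM. Orc1 was the lowest member at 96 h in both genotypes. As was common among tested genes, its 96 h values lay below all earlier ones. It fell by 2.60 (SE 0.47, adjusted p 2.2e-07) in wild-type and by 1.64 (SE 0.47, adjusted p 0.00158) in HMGN1-OE cells. Cdt1, which brings the Mcm ring to origins, was 23.6 and 39.7, 48.8 and 46.0, and 13.2 and 4.46 FPKM in wild-type, and 40.6 and 24.3, 38.8 and 34.7, and 11.9 and 17.3 FPKM in HMGN1-OE libraries. Cdt1 fell by 1.84 (SE 0.52, adjusted p 0.000761) in wild-type cells, and its change of −1.08 (SE 0.52, adjusted p 0.0567) in HMGN1-OE cells did not pass. Centred, the Cdt1 changes were 0.0048 and 0.23, with adjusted p of 0.981 and 0.238. Orc6 and the loader gene Cdc6 fell by 2.48 and 2.18 in wild-type and by 1.60 and 1.68 in HMGN1-OE cells. With wild-type 96 h library 1 left out, the wild-type changes were −2.02 for Orc1 and −1.15 for Cdt1, the latter no longer called (adjusted p 0.0524). Without HMGN1-OE 0 h library 0 or 96 h library 0 the HMGN1-OE change of Orc1 was −1.40 or −1.47 and did not pass (adjusted p 0.0559 and 0.0565).

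Of the genes that activate the helicase, Gins2 fell most and Cdc45 least, and the products of both stand in the same working helicase. Gins2 was 49.8 and 89.7, 85.9 and 116, and 14.3 and 3.96 FPKM in wild-type, and 85.7 and 57.9, 74.2 and 72.2, and 12.3 and 17.9 FPKM in HMGN1-OE libraries at 0, 36, and 96 h. Gins2 fell by 2.96 (SE 0.54, adjusted p 2.44e-07) and by 2.17 (SE 0.54, adjusted p 0.000253), and centred by 1.11 and 0.86, both called. Cdc45 was 44.1 and 95.7, 102 and 96.7, and 29.5 and 8.79 FPKM in wild-type, and 69.8 and 45.8, 72.8 and 66.2, and 26.6 and 33.7 FPKM in HMGN1-OE libraries. Cdc45 fell by 1.93 (SE 0.55, adjusted p 0.000746) in wild-type cells. Its change of −0.90 (SE 0.55, adjusted p 0.131) in HMGN1-OE cells did not pass, and centred it had −0.09 and 0.42 (adjusted p 0.708 and 0.0987). Mcm10, Gins1, Gins4, and Gins3 lay between, at −2.72 to −2.00 in wild-type and −1.89 to −1.19 in HMGN1-OE cells, all called. Without wild-type 96 h library 1 the wild-type changes were −2.15 for Gins2 and −1.12 for Cdc45, the latter not called (adjusted p 0.0628). In the mouse annotation 67.3% of the Gins2 exon bases are shared with Gse1 on the other strand, at most 28.1 FPKM, and the library kit does not mark strand, so the Gins2 values are uncertain to that extent.

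Pcna and the Rfc1 to Rfc5 genes, which encode the loader that opens the clamp, had similar changes apart from Rfc4, which fell most. Pcna was 352 and 747 FPKM at 0 h, 787 and 804 at 36 h, and 184 and 59.0 at 96 h in wild-type libraries. In HMGN1-OE libraries Pcna was 626 and 401, 576 and 588, and 157 and 242 FPKM. It ranked highest of the 41 members in all 6 groups. As was common among tested genes, it was lower in each 96 h library than in any earlier library. It fell by 2.29 (SE 0.60, adjusted p 0.000299) in wild-type and by 1.36 (SE 0.60, adjusted p 0.038) in HMGN1-OE cells. Centred, Pcna had −0.44 (adjusted p 0.0959) and −0.04 (adjusted p 0.866) and was not called. Rfc4, a small subunit, was 46.9 and 106, 86.0 and 101, and 14.3 and 4.36 FPKM in wild-type and 72.1 and 55.4, 65.6 and 67.5, and 12.3 and 22.0 FPKM in HMGN1-OE libraries. Rfc4 fell by 2.98 (SE 0.54, adjusted p 1.89e-07) and by 1.88 (SE 0.54, adjusted p 0.00148), and Rfc1, the large subunit, by 2.20 (SE 0.54, adjusted p 0.000106) and by 1.41 (SE 0.54, adjusted p 0.0163). Rfc2, Rfc3, and Rfc5 fell by 2.34 to 2.39 in wild-type cells and by 1.48 to 1.64 in HMGN1-OE cells. With wild-type 96 h library 1 left out, the wild-type changes were −1.475 for Pcna, −2.23 for Rfc4, and −1.53 for Rfc1, and all 3 passed. The HMGN1-OE changes of Pcna and Rfc1 did not pass without HMGN1-OE 0 h library 0 (−1.035 and −1.13) or 96 h library 0 (−1.05 and −1.21), that of Pcna also not without 96 h library 1 (−1.665), and that of Rfc4 not without 96 h library 0 (−1.485). Exons of Rfc2 and Rfc4 share 15.1% and 12.7% of their bases with Lat2 and Eif4a2 on the other strand, at most 129.9 and 258 FPKM, which makes their values uncertain to that extent. Of the other members, Orc6 shares 6.93% of its exon bases with Vps35 (at most 183 FPKM) and Mcm7 shares 7.25% with Ap4m1 and 1.45% with Cops6 (at most 29.9 and 289 FPKM), all on the other strand, and 1.9% with Mir25 on its own strand (at most 1269 FPKM). Rfc5 shares 10.7% with Wsb2 on the other strand (at most 14.1 FPKM). Orc1 (10.8%), Cdc45 (5.96%), and Lig1 (5.79%) on the other strand and Pole2 (8.5%) on its own share bases with genes whose names are not in the expression table.

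Pold2, the small regulatory subunit of polymerase delta, had the largest fall of all members. It was 73.8 and 126 FPKM at 0 h, 119 and 160.4 at 36 h, and 6.73 and 2.17 at 96 h in wild-type libraries, and 124 and 71.7, 103 and 99.7, and 6.12 and 11.5 in HMGN1-OE libraries. The highest 96 h value thus lay below the lowest earlier value by more than the spread within any group. Pold2 fell by 4.30 (SE 0.54, adjusted p 7.81e-14) in wild-type cells, at the 1.42 percentile of the changes of all tested genes, and by 3.33 (SE 0.54, adjusted p 1.51e-08) in HMGN1-OE cells, at the 2.47 percentile. Centred, it fell by 2.46 and 2.02, and without wild-type 96 h library 1 the wild-type change was −3.66. Pold1, the catalytic subunit of the same enzyme, fell by 2.40 and 1.64. The primase gene Prim2 changed least in this role. Prim2 was 22.3 and 50.4, 53.2 and 55.3, and 13.2 and 4.54 FPKM in wild-type, and 34.7 and 24.9, 45.7 and 40.0, and 10.96 and 15.2 FPKM in HMGN1-OE libraries. Prim2 fell by 1.97 (SE 0.52, adjusted p 0.000344) and by 1.12 (SE 0.52, adjusted p 0.0472), and centred it had −0.12 and 0.19 (adjusted p 0.487 and 0.288). Without wild-type 96 h library 1 the wild-type change was −1.29, and the HMGN1-OE call was lost when any of the 4 HMGN1-OE libraries of 0 or 96 h was left out (−1.36 to −0.89). Pola1 and Pola2 of polymerase alpha fell by 2.91 and 2.90 in wild-type and by 2.11 and 2.07 in HMGN1-OE cells, close to each other in both. Pole2 and Pole of polymerase epsilon fell by 2.98 and 2.35 in wild-type and by 1.97 and 1.70 in HMGN1-OE cells, and Prim1 fell by 2.52 and 1.64.

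Rpa1 and Rpa2, which coat single-stranded DNA, both fell. Rpa2 was 57.6 and 107, 102 and 122, and 17.9 and 5.18 FPKM in wild-type and 90.6 and 63.5, 88.0 and 83.0, and 16.4 and 22.0 FPKM in HMGN1-OE libraries at 0, 36, and 96 h. Rpa2 fell by 2.88 (SE 0.55, adjusted p 6.26e-07) and by 1.94 (SE 0.55, adjusted p 0.00117). Rpa1 was 80.7 and 148, 133 and 169.5, and 29.4 and 9.61 FPKM in wild-type and 109 and 79.1, 107 and 94.6, and 25.8 and 33.2 FPKM in HMGN1-OE libraries. Both genes were lower in every 96 h library than in any earlier one, as was common among tested genes. Rpa1 fell by 2.62 (SE 0.56, adjusted p 8.69e-06) and by 1.63 (SE 0.56, adjusted p 0.00713). Without wild-type 96 h library 1 the wild-type changes were −2.08 for Rpa2 and −1.86 for Rpa1, and Rpa1 in HMGN1-OE cells did not pass without 0 h library 0 (−1.40) or 96 h library 0 (−1.46).

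The nucleotide supply genes differed widely among themselves, from −3.51 to −1.04 in wild-type cells and from −2.44 to −0.38 in HMGN1-OE cells. Dut, which removes dUTP so that uracil is kept out of DNA, was 77.5 and 133, 133 and 169, and 15.1 and 4.05 FPKM in wild-type, and 114 and 76.7, 109.2 and 109.1, and 12.5 and 21.6 FPKM in HMGN1-OE libraries. Dut fell by 3.51 (SE 0.55, adjusted p 2.02e-09) and by 2.44 (SE 0.55, adjusted p 5.55e-05), and centred by 1.66 and 1.12, both called. Tk1, the thymidine kinase that salvages thymidine in S phase, was 34.4 and 51.4 FPKM at 0 h, 75.1 and 72.4 at 36 h, and 35.2 and 11.2 at 96 h in wild-type libraries. In HMGN1-OE libraries Tk1 was 65.4 and 43.5, 77.5 and 75.9, and 34.7 and 47.7 FPKM. The 0 and 96 h libraries of Tk1 overlapped in both genotypes. Its changes of −1.04 (SE 0.55, adjusted p 0.0691) and −0.38 (SE 0.55, adjusted p 0.53) did not pass, and the HMGN1-OE value lay between −0.09 without 0 h library 0 and −0.67 without 0 h library 1 (−0.16 and −0.61 without 96 h library 0 and 1). Centred, Tk1 rose by 0.81 (SE 0.20, adjusted p 0.00524) and by 0.93 (SE 0.20, adjusted p 0.00289), and by level it moved from place 32 to place 9 of the 41 members in wild-type and from 24 to 9 in HMGN1-OE cells. Rrm2, the small subunit of ribonucleotide reductase, fell by 1.67 (SE 0.58, adjusted p 0.00567) in wild-type cells and had −1.11 (SE 0.58, adjusted p 0.0766) in HMGN1-OE cells, while the large subunit gene Rrm1 fell by 2.59 and 1.59. Tyms, which makes thymidylate, fell by 2.34 and 1.52. With wild-type 96 h library 1 left out, the wild-type changes were −2.67 for Dut, −0.84 for Rrm2, no longer called (adjusted p 0.174), and −0.25 for Tk1, and Tk1 was called lower without wild-type 0 h library 0 (−1.32, adjusted p 0.042) or without wild-type 96 h library 0 (−1.825, adjusted p 0.00128).

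Of the genes that finish and maintain the new strands, Fen1 fell most. Fen1, the nuclease that trims flaps of the lagging strand, was 78.8 and 162, 151 and 153, and 19.9 and 7.26 FPKM in wild-type, and 142 and 89.0, 119 and 111, and 18.8 and 26.8 FPKM in HMGN1-OE libraries. Fen1 fell by 3.12 (SE 0.56, adjusted p 1.25e-07) and by 2.27 (SE 0.56, adjusted p 0.000199), and centred by 1.27 and 0.96. Lig1, the ligase that seals the trimmed fragments, was 48.0 and 86.8, 85.6 and 109, and 26.1 and 8.20 FPKM in wild-type, and 76.2 and 46.6, 68.6 and 64.4, and 22.4 and 28.9 FPKM in HMGN1-OE libraries. All 96 h values of both genes lay below all earlier ones, as was common among tested genes. Lig1 fell by 2.05 (SE 0.55, adjusted p 0.000337) and by 1.20 (SE 0.55, adjusted p 0.043), and centred it had −0.21 and 0.12, neither called. The maintenance methylation genes Uhrf1 and Dnmt1 fell by 2.21 and 2.12 in wild-type and by 1.37 and 1.25 in HMGN1-OE cells. Without wild-type 96 h library 1 the wild-type changes were −2.45 for Fen1 and −1.27 for Lig1. The HMGN1-OE change of Lig1 did not pass without 0 h library 0 (−0.85), 96 h library 0 (−1.02), or 96 h library 1 (−1.375). An antisense gene shares 78.8% of the Fen1 exon bases in the annotation, and 5.37% are shared with Tmem258 on the other strand, which reached 876 FPKM, and reads from the strands could not be told apart.

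**Figure D3:**
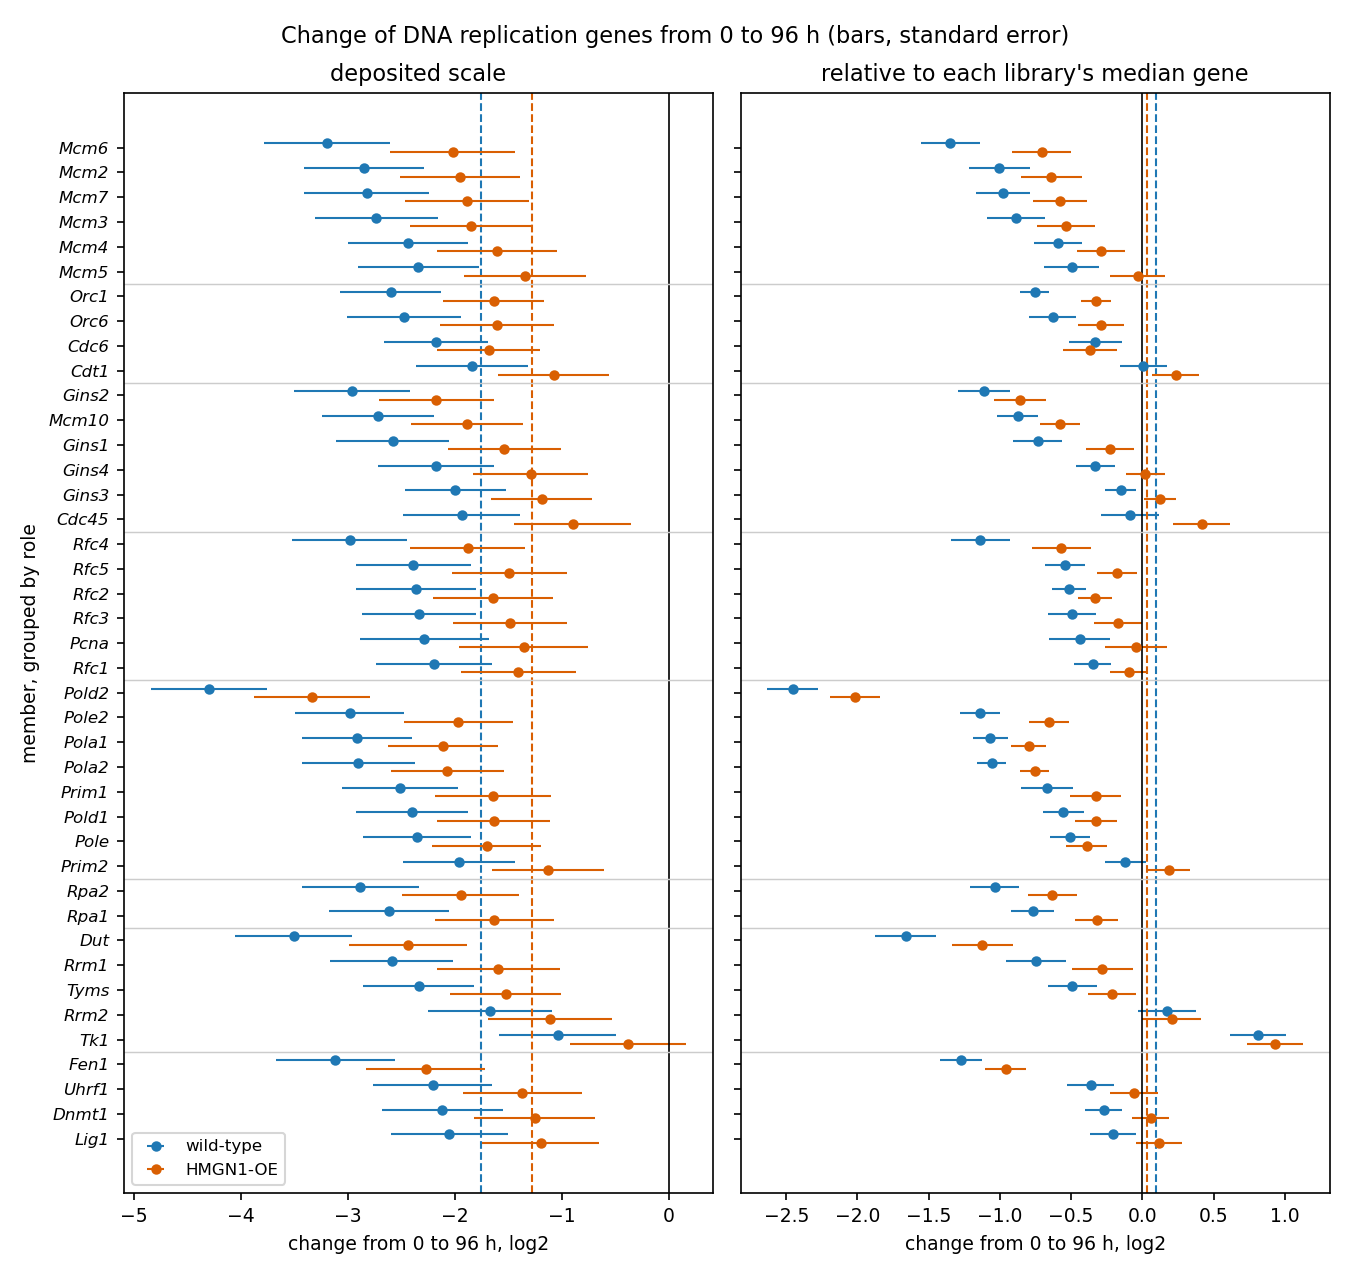
Change from 0 to 96 h (log2, points, with bars for the standard error) of each member by role, for wild-type (blue) and HMGN1-OE (orange) cells, on the deposited scale (left) and relative to the median gene (right); dashed lines mark the median of all tested genes. Pold2 and Dut lie farthest to the left in both genotypes, at −4.30 and −3.51 in wild-type cells, and Tk1 farthest to the right.

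A single scale factor per library cancels in a ratio between members, but the authors' loess normalization depends on level and need not cancel between genes of different level. FPKM is per length, so levels of different genes can be set side by side, and 16 pairs, chosen after their values were seen, are given as a description. Pold2 over Pold1 was 2.15 to 2.51 in the 8 libraries of 0 and 36 h and 0.534 to 0.785 in the 4 libraries of 96 h. The mRNA of the regulatory subunit thus went from above that of the catalytic subunit to below it. Rrm2 over Rrm1 was 0.776 to 1.06 before and 1.18 to 1.68 at 96 h, the opposite order for the small subunit. Tk1 over Tyms rose from 1.08 to 2.16 before to 3.34 to 3.97 at 96 h, and Dut over Tyms went from 2.70 to 3.27 down to 1.31 to 1.59. Fen1 over Lig1 went from 1.41 to 1.91 down to 0.761 to 0.927, and Cdc45 over Gins2 from 0.791 to 1.19 up to 1.88 to 2.22. In 12 of the 16 pairs the 4 libraries of 96 h lay outside the range of the 8 earlier ones. The other 4 pairs, Pole2 over Pole, Pola1 over Pola2, Rfc4 over Rfc1, and Uhrf1 over Dnmt1, overlapped. The share of pairs of other tested genes that separate in this way was not computed, so the count is not read as a trait of the members. Wild-type 96 h library 1, which stood apart in level, is among the 4 libraries of 96 h. Its side in the 12 pairs thus follows from how they were counted. Across the 41 members the order of the group mean levels at 96 h had a Spearman correlation with that at 0 h of 0.85 in wild-type cells and 0.88 in HMGN1-OE cells, and between the genotypes of 0.99 at 0 h and 0.99 at 96 h.

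**Figure D4:**
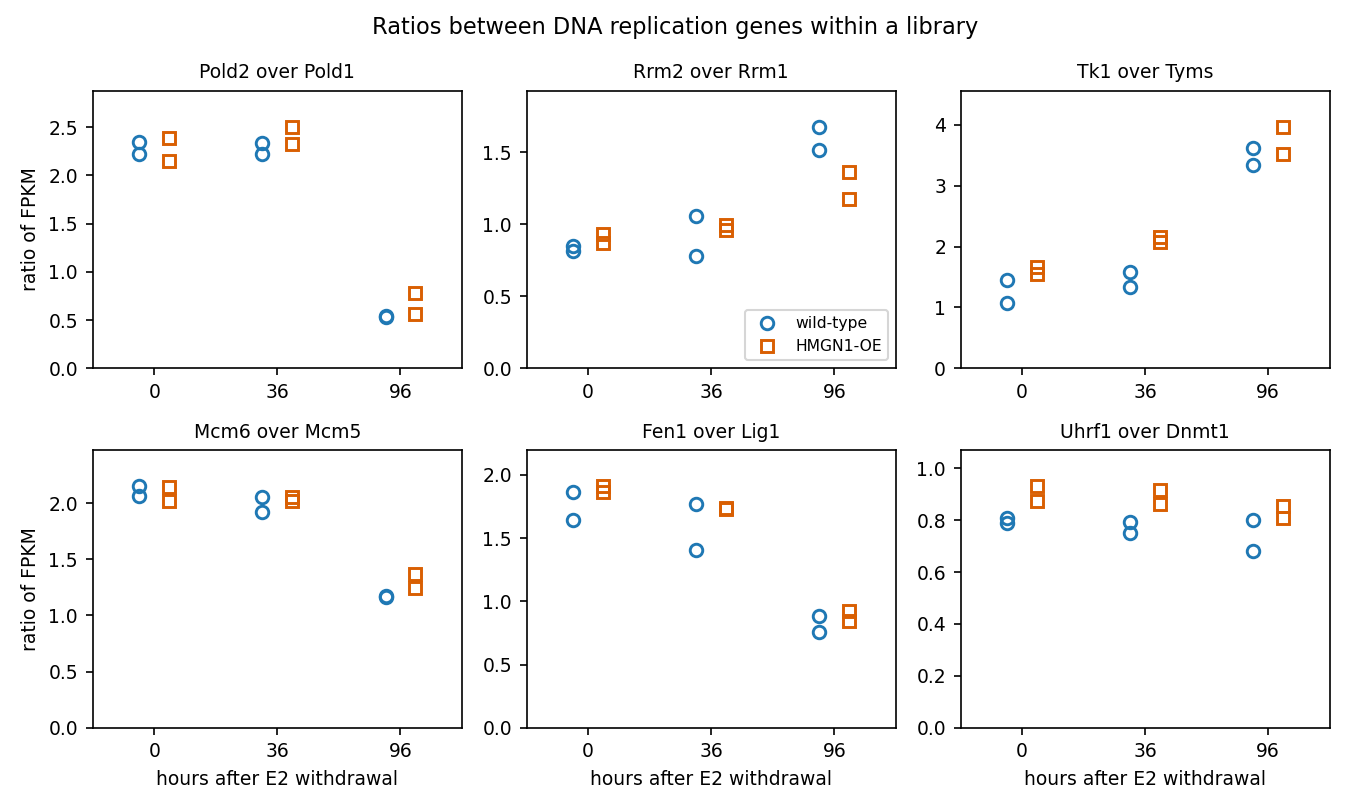
Ratio of FPKM between 2 members of the same library (vertical axis from 0) at 0, 36, and 96 h, with a circle for each wild-type and a square for each HMGN1-OE library. The 96 h libraries lie apart from the earlier ones in all panels but that of Uhrf1 over Dnmt1, with Pold2 over Pold1 at 0.534 to 0.785 against 2.15 to 2.51 before.

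No DNA replication gene was called between the genotypes at any time. At 0 h the median difference of HMGN1-OE from wild-type cells was −0.10 beside −0.12 over all tested genes, with 0 of 41 members called (1.36% of tested genes called, 0 members at an unadjusted p under 0.05). On the deposited scale 33 members were lower at 0 h, while centred 28 were higher, median 0.04 beside 0.01, with 0 called and both HMGN1-OE libraries above both wild-type libraries for 14 members, against 19.8% of tested genes. At 36 h the median was −0.47 beside −0.54, again with 0 called (1.26% of tested genes called, 0 members at an unadjusted p under 0.05). For 40 of 41 members the higher HMGN1-OE value at 36 h was still under the lower wild-type value, as it was for 84.4% of tested genes. Centred, the direction turned, with 38 of 41 higher in HMGN1-OE cells, median 0.11 beside 0.04, none called, and both HMGN1-OE libraries above both wild-type libraries for 28 members, against 26% of tested genes. On the deposited scale Tk1 was the member on the other side, with 77.5 and 75.9 FPKM in HMGN1-OE against 75.1 and 72.4 in wild-type libraries. The difference for Tk1 was 0.06 (SE 0.55, adjusted p 0.93), and centred 0.64 (adjusted p 0.981, unadjusted p 0.0104). At 96 h all 41 members were higher in HMGN1-OE cells, with a median of 0.80 beside 0.36 over all tested genes, and none was called (0.669% of tested genes called, adjusted p of each member 0.859). Centred, 41 of 41 were higher at 96 h, median 0.39 beside −0.05, with both HMGN1-OE libraries above both wild-type libraries for 28 members, against 21.7% of tested genes. Of the 41, 28 had an unadjusted p under 0.05 on that scale, as had 17.9% of tested genes, and 0 an adjusted one, the lowest being 0.218. These values rest on wild-type 96 h library 1. Without it the median difference at 96 h was 0.04 beside −0.05 over all tested genes on the deposited scale, with 29 members higher. Centred it was 0.12 beside 0.03, with 37 higher. Its immature myeloid markers also had the lowest sum of all libraries, 124 FPKM, against 693 FPKM in library 0. On the deposited scale 2 of 7 immature myeloid markers were called lower in HMGN1-OE cells at 0 h (median −1.38) and 3 of 7 higher at 96 h (median 2.11), and 4 of 9 mature neutrophil markers lower at 36 h (median −2.07), with 0 of these called centred. The part of these markers in the genotype differences was not tested. With 2 libraries against 2, an exact permutation test of a single gene cannot go below p = 0.333.

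The change over time was not shown to differ between the genotypes. The interaction of genotype with 0 to 36 h had a median of −0.39 over the members beside −0.41 over all tested genes, with 0 called (0.504% of tested genes called, 0 members at an unadjusted p under 0.05). Centred, its direction turned, with a median of 0.06 beside 0.04, positive in 31 members, 0 called, and 1 at an unadjusted p under 0.05 (1.89% of tested genes). The interaction with 0 to 96 h had a median of 0.86 beside 0.51, positive in 41 of 41 members, with 0 called (0.677% of tested genes called, 0 members at an unadjusted p under 0.05). Its median was 0.12 beside 0.07 over all tested genes without wild-type 96 h library 1, positive in 36. Centred it was 0.33 beside −0.02, positive in 40, with 0 called and 2 at an unadjusted p under 0.05 (10.6% of tested genes). Without wild-type 96 h library 1 the centred median was 0.07 beside 0.02, positive in 31. On the deposited scale Mcm6 had the value farthest from 0, 1.18, and Cdc6 the value nearest, 0.49. Without wild-type 96 h library 1 they had 0.33 and −0.17, and Orc1 had the value farthest from 0, 0.38. The genotype differences at 0 and 96 h and the interaction with 0 to 96 h share libraries. In that interaction 3 of 7 immature myeloid markers were called higher on the deposited scale (median 2.70). Of 9 mature neutrophil markers, 1 was called higher and 1 lower, and 0 of either list were called centred. The part of these markers in the interaction was not tested.

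**Figure D5:**
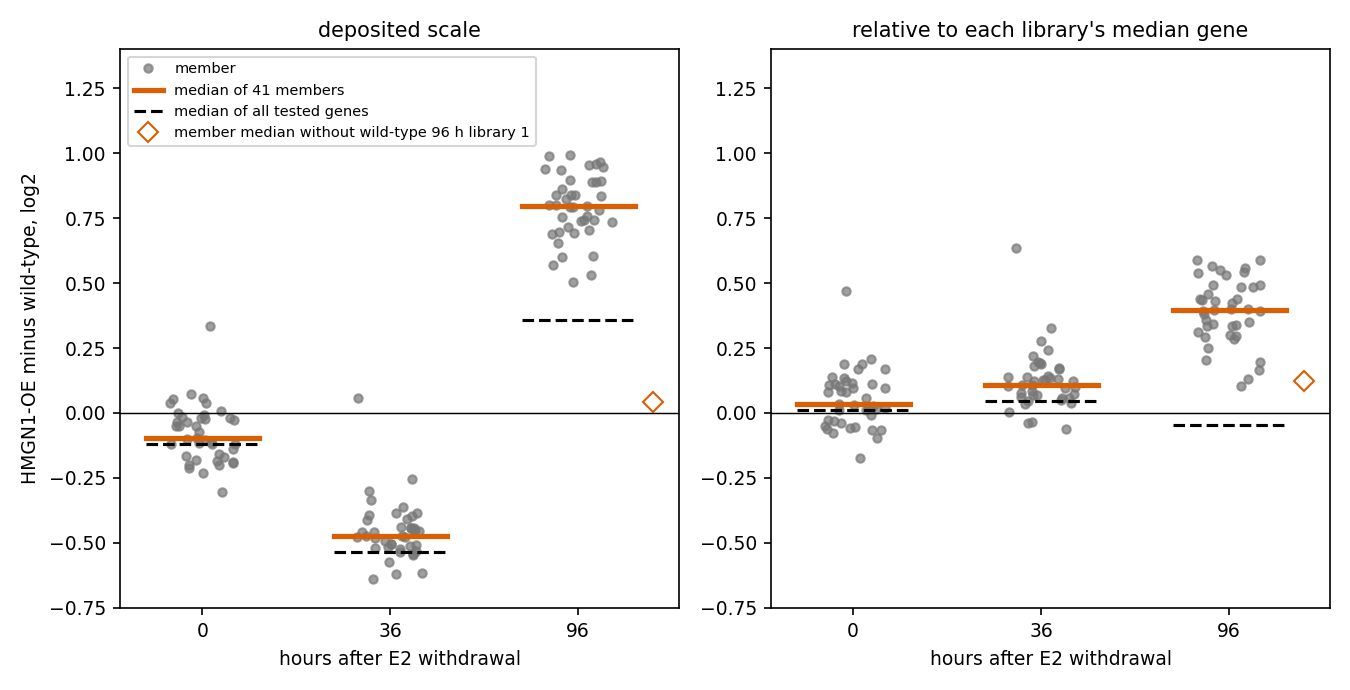
Difference of HMGN1-OE from wild-type cells (log2) for each of the 41 members (grey points) at 0, 36, and 96 h, on the deposited scale (left) and relative to the median gene (right), with the member median (orange) and the median of all tested genes (dashed). At 96 h all members lie above 0, with medians of 0.80 and 0.39, and the open diamonds mark the member medians of 0.04 and 0.12 without wild-type 96 h library 1.

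Other genes of the pathway, from lists set beside the members, were mostly lower at 96 h on the deposited scale, as were most tested genes. Of 34 further replisome and licensing genes, 33 were called lower from 0 to 96 h in wild-type cells and 25 in HMGN1-OE cells, where 77.2% and 62.4% of tested genes were. Their medians were −2.13 and −1.24 beside −1.75 and −1.28 over all tested genes. Orc2, another origin recognition subunit, fell by 3.59 and 2.54, while Asf1b, a histone chaperone, had −0.998 (adjusted p 0.0836) and −0.17 (adjusted p 0.789). Centred, 16 were called lower and 4 higher in wild-type cells, against 33.8% and 36.5% of tested genes, and 9 lower and 6 higher in HMGN1-OE cells, against 32.5% and 30.9%. The 16 further nucleotide supply genes had medians of −3.78 and −2.67 with 13 called lower in each genotype, beside the same 77.2% and 62.4% of tested genes. Centred, 12 were called lower in each genotype (medians −1.94 and −1.36), against 33.8% and 32.5% of tested genes, and 4 and 3 higher. Dctpp1, which degrades non-canonical dCTP, fell by 4.43 and 3.56, and Gart, an enzyme of purine synthesis, by 4.32 and 3.21. Samhd1, which degrades dNTPs, had −0.15 and −0.18 (adjusted p 0.792 and 0.77), and the mitochondrial thymidine kinase Tk2 had −0.32 and −0.01 (adjusted p 0.53 and 0.989). Centred, Samhd1 and Tk2 were among those called higher, Samhd1 by 1.69 and 1.13 and Tk2 by 1.53 and 1.30.

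The E2F family and pocket protein genes, which are known to control the transcription of replication genes, were called lower on the deposited scale about as often as the tested genes as a whole. Of 13, 10 were called lower and 1 higher from 0 to 96 h in wild-type cells, and 8 lower and 1 higher in HMGN1-OE cells, where 77.2% and 62.4% of tested genes were called lower. Centred, 4 were called lower and 5 higher in wild-type cells, against 33.8% and 36.5% of tested genes, and 3 lower and 4 higher in HMGN1-OE cells, against 32.5% and 30.9%. E2f2, an activator of the family, rose by 2.95 (adjusted p 3.21e-12) and by 3.11 (adjusted p 2.44e-13), and E2f4, which acts mostly with pocket proteins, fell by 3.17 and 2.33. Rb1, the retinoblastoma gene, had −0.28 and 0.24 (adjusted p 0.599 and 0.668) and rose by 1.57 and 1.55 on the centred scale. Of 4 proliferation genes outside replication, Mki67 did not pass, with −0.68 and 0.01 (adjusted p 0.256 and 0.991). Mki67 was 73.1 and 158 FPKM at 0 h and 119 and 36.9 at 96 h in wild-type libraries, and 130 and 81.5 at 0 h and 95.3 and 112 at 96 h in HMGN1-OE libraries. Relative to the median gene Mki67 went from 5.195 to 6.385 at 0 and 36 h to 12.1 to 17.2 at 96 h, and centred it rose by 1.16 and 1.32 (limma adjusted p 0.000657 and 0.000403). Of the 4 genes, 1 was called higher and 1 lower centred in wild-type cells (36.5% and 33.8% of tested genes). In HMGN1-OE cells 2 were called higher and 0 lower (30.9% and 32.5%). Top2a, a topoisomerase of dividing cells, and the mitotic genes Ccnb1 and Cdk1 fell by 1.53, 2.38, and 1.90 in wild-type cells, and in HMGN1-OE cells only Ccnb1 of the 4 passed, with −1.56.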

How the data were processed

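Per the study's methods, RNA came from a counted number of cells with ERCC Mix 1 RNAs added, reads were aligned with Bowtie to a genome with the ERCC sequences, and the authors computed RPKM and normalized them by loess on the ERCC RNAs. The submitters' processing notes name HISAT, Cufflinks 2.0.0, and the build mm9 instead. The deposited values are FPKM per gene and library, 23309 genes and 92 ERCC RNAs. The library kit (TruSeq RNA v2) does not mark strand. Read depth is unknown, since multiples of a single read could not be recovered from the low values (21.55% to 23.55% lay within 10% of a step, with 20% by chance), so no counting error is given. All 12 library columns were used.

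The deposited FPKM were put on the scale log2(FPKM + 1) and tested with limma 3.58.1 in R 4.3.3 (group means of 6 groups, eBayes with trend, two-sided, Benjamini-Hochberg over the 11516 genes that reached 1 FPKM in 2 or more libraries, called under 0.05). The prior degrees of freedom were infinite on the deposited scale, so the standard errors follow the trend over expression and do not hold a gene's own spread; they were 2.87 on the centred scale. The study calls the libraries of a group biological duplicates. All members are given by role, with full statistics for Pcna, Mcm2 to Mcm7, and the members with the largest and smallest wild-type change from 0 to 96 h in each role, and at most 4 genes are named for each further list. The members and lists were chosen with earlier results of these data known. Alternatives were a pseudocount of 0.1, no filter, a mean of at least 5 FPKM, centring, quantile normalization, limma without the trend, only the groups compared, and each library left out. Centring with a pseudocount of 0.1, a block on the column digit, the CCAAT search, and the member ratios were added after the values were seen. Exon overlaps are from GENCODE vM21, in which 14 of the 41 members share exon bases with another gene, and Pcna and Tyms have annotated pseudogenes. The test was checked on simulated data. Python 3.11.15 with pandas, numpy, scipy, and matplotlib was used for the rest.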

Additional observations from a re-analysis of the deposited data

How the results depend on the processing

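Of 252 alternative values of the counts of called members and of the members' median minus that of all tested genes, 212 kept their direction and size. For a median this meant a move of less than 0.171. The 212 include counts of 0 that stayed at 0 and medians that centring by construction cannot change, so they do not measure how stable the other values were. No comparison between genotypes and no interaction gained a called member under any alternative run. For the counts with a library left out, the share of all tested genes called is not given here. Left out in turn, single libraries moved the count from 0 to 96 h between 37 and 41 in wild-type and between 10 and 37 in HMGN1-OE cells, and from 36 to 96 h between 40 and 41 and between 15 and 36. The HMGN1-OE counts from 36 to 96 h were 23 centred, 18 with quantile normalization, and 23 centred with a pseudocount of 0.1. From 0 to 96 h they were 20 with no filter, 18 centred, 14 with quantile normalization, and 15 centred with a pseudocount of 0.1. The median of the members against the median gene (log2) was −0.86 from 36 to 96 h in wild-type cells, and −0.5523 with a pseudocount of 0.1 (also centred), −0.5605 at a mean of at least 5 FPKM, and −0.4628 with quantile normalization. From 0 to 96 h the wild-type values were −0.4818, −0.4054, and −0.4134, and the HMGN1-OE values −0.1998, −0.2196, and −0.1568 from 36 to 96 h and −0.1412, −0.1657, and −0.1248 from 0 to 96 h, in the same order. With no filter on low values they were −2.899 and −2.365 in wild-type and −1.684 and −1.598 in HMGN1-OE cells, 0.4865 for wild-type cells from 0 to 36 h, and −0.384 and 0.786 for the genotypes at 36 and 96 h. With libraries left out these medians ranged from −1.102 to −0.5225 (wild-type 36 to 96 h), from −0.9963 to −0.3714 (wild-type 0 to 96 h), and from 0.09318 to 0.7377 (genotypes at 96 h), each time at the lower size without wild-type 96 h library 1 and at the higher without library 0 of that group.

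Of 588 alternative values of single members from 0 to 96 h, 474 kept direction and call, 81 lost the call, 7 gained it, and 26 changed sign. The sign changes all came with centring, quantile normalization, or centring with a pseudocount of 0.1. In that order, Tk1 had 0.8093, 0.9655, and 0.9664 in wild-type and 0.9305, 1.063, and 1.036 in HMGN1-OE cells, and Cdt1 had 0.004824, 0.06688, and 0.07061 and 0.2348, 0.2988, and 0.3013. Cdc45 had 0.4162, 0.5145, and 0.5096 in HMGN1-OE cells and, by the last pair of settings, 0.04542 and 0.04143 in wild-type cells. In HMGN1-OE cells Lig1 had 0.1152, 0.2133, and 0.2002, Prim2 had 0.1874, 0.243, and 0.2469, Mcm5 had 0.1783 and 0.0631 by the last pair of settings, and Pcna had 0.06503 by the last. These settings by construction remove the differences in total level that the spike-in scale keeps. The cause of the other changes was not tested. The digits 0 and 1 of the columns are not the numbers 1 and 2 that the samples bear, and libraries of the same digit did not deviate together: the difference between libraries 1 and 0 had a correlation over genes above 0.1 in 3 of 15 pairs of groups, range −0.37 to 0.18. A replicate block on the digit, run after the data were seen, left 41 and 40 members called from 36 to 96 h and from 0 to 96 h in wild-type cells, 38 and 31 in HMGN1-OE cells, and 0 in the other comparisons. Of the named members, Lig1, Mcm5, Pcna, and Prim2 lost the call in HMGN1-OE cells under it (limma adjusted p 0.0527 to 0.0771). Read depth is unknown and limits what can be said of the precision of each value.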
